A study of Mus musculus with 9 samples.

Results

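The clustered protocadherins are cell-surface adhesion proteins whose genes stand in tandem in the alpha (Pcdha), beta (Pcdhb) and gamma (Pcdhg) clusters of mouse chromosome 18. All 58 gene symbols of the 3 clusters in the files reached 10 counts summed over the 9 libraries, and these 58 genes, of 40213 in all, are described here. They were 14 alpha, 22 beta and 22 gamma genes. The ventral hippocampus of 9 wild-type male C57BL/6J mice, 8 weeks old on arrival, was sequenced as total RNA with 3 mice per group. SED mice were sedentary and untreated. SUS mice were labelled stress-susceptible after tube restraint for 2 hours a day on 14 days, and stayed sedentary. SUS_LE mice, also labelled stress-susceptible after that restraint, then had 2 weeks of low-intensity treadmill running. How susceptibility was scored is not given in the sources used here, and restrained mice labelled resilient were not analysed here. Each library is labelled as a separate mouse, and all 9 carry the same batch number.

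As background, each alpha or gamma mRNA joins one variable exon, which encodes the extracellular cadherin repeats and the membrane span, to constant exons shared by the whole cluster. Beta genes are single variable exons with no constant exon of their own. Most neurons use a small, largely random choice of the alternate genes, whose promoters are bound by CTCF and cohesin, while the C-type genes at the 3′ ends of the alpha and gamma clusters are used far more uniformly. The proteins pair across cells by like-with-like binding, and the resulting surface identity lets branches of one neuron avoid each other. In whole tissue a gene's count is a sum over many cells, so that fewer cells using a gene and less RNA per cell cannot be told apart.

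Library totals were 14172344 to 15582304 counts, and the 58 genes held 0.0918 to 0.0955% of them. Levels below are CPM, counts relative to library size, with libraries scaled by the TMM method of edgeR. Choroid plexus RNA differed widely between libraries. Ttr, transthyretin of that epithelium, stood at 27.4 CPM in SUS mouse 1, 83.2 CPM in SUS_LE mouse 1 and 59.6 CPM in SUS_LE mouse 3, against 1509 to 6085 CPM in the other 6 libraries. All 20 choroid plexus markers were measured, and their summed level was 4590 to 6657 CPM in SED, 155 to 8902 CPM in SUS and 237 to 2368 CPM in SUS_LE. Their part in the results was not tested except by leaving the 3 libraries out or fitting a choroid score. Markers of hippocampal cell types were present, with dentate granule cell markers summing to 387 to 503 CPM and CA1 and CA3 pyramidal cell markers to 1187 to 1266 CPM over the libraries. No marker list for the ventral part was read.

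The gamma cluster supplied most of the protocadherin RNA, and no cluster total differed between groups by more than the spread among mice. Over all libraries 84314 of the 123911 member counts, 68.0%, were gamma, 17.7% were alpha and 14.3% were beta. Per kilobase of transcript, the summed levels were 135 CPM per kb for gamma, 28.9 for 13 alpha genes with a transcript length, and 32.1 for beta. The alpha total was 163, 175 and 161 CPM in SED, 159, 178 and 151 CPM in SUS, and 162, 168 and 184 CPM in SUS_LE. The beta total was 132, 132 and 138 CPM in SED, 127, 147 and 121 CPM in SUS, and 121, 145 and 145 CPM in SUS_LE. The gamma total was 625, 634 and 643 CPM in SED, 661, 629 and 628 CPM in SUS, and 669, 654 and 623 CPM in SUS_LE. In all 3 clusters the 3 groups overlapped. The log2 ratio of group means of SUS to SED was −0.03 for alpha, −0.03 for beta and 0.01 for gamma. The ratios of SUS_LE to SUS were 0.08, 0.06 and 0.02, and those of SUS_LE to SED were 0.05, 0.04 and 0.03, in the same order. No test was run on these totals.

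**Figure D1:**
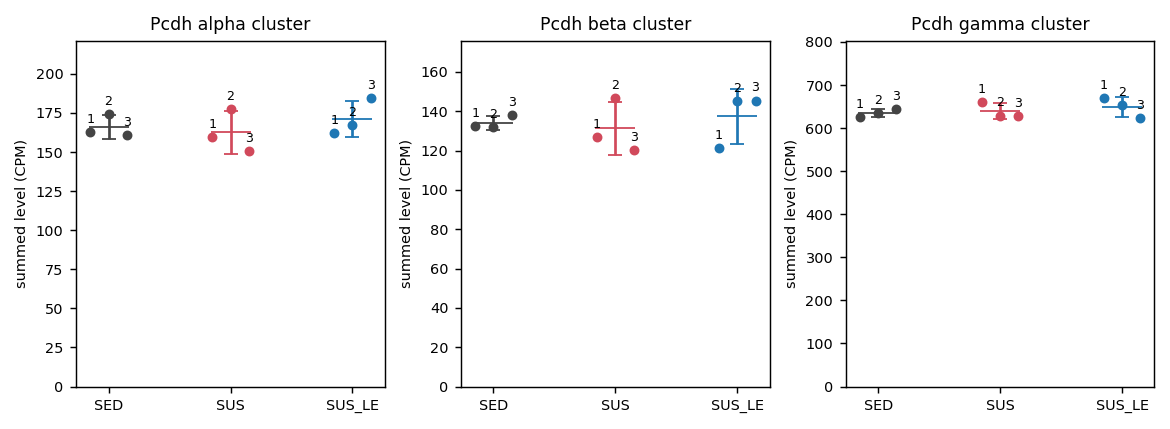
Summed level (CPM, linear axis from 0) of the alpha, beta and gamma clusters in each mouse, numbered by replicate within SED, SUS and SUS_LE; horizontal bars are group means and vertical bars 1 SD (n = 3). The groups overlap in every panel, and SUS mouse 2 stands above the other SUS mice in the alpha and beta panels but not in the gamma panel.

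Many beta genes, and many alpha genes, were high or low in the same mice of SUS and SUS_LE. In SUS, 15 of the 22 beta genes were highest in mouse 2, and in SUS_LE, 17 of 22 were lowest in mouse 1. In SED, 7, 6 and 9 were highest and 10, 10 and 2 lowest in mice 1, 2 and 3, and the beta total was 134 ± 3.4 CPM (SD, n = 3). Of the 14 alpha genes, 8 were highest in SUS mouse 2, and in SUS_LE 10 were highest in mouse 3 and 8 lowest in mouse 2. Of the 22 gamma genes, 10 were highest in SUS mouse 1 and 10 lowest in SUS_LE mouse 3. The variance of the beta total within groups, over all 3 groups, was 5.88 times the sum of the variances of its genes, where genes varying independently would give about 1. The same ratio was 1.68 for alpha and 1.58 for gamma. It depends on the spread of single genes too. Their median coefficient of variation within groups was 24.7% for alpha, 16.5% for beta and 12.6% for gamma. Within groups the totals had coefficients of variation of 6.68% for alpha, 8.51% for beta and 2.84% for gamma, against 2.03%, 2.26% and 1.03% from counting alone. Library-wide trends with GC content differed between groups and between mice of a group. Across 14144 genes, the Spearman correlation between a gene's deviation from its mean and its GC content was −0.25, −0.03 and −0.11 in SED mice 1, 2 and 3, 0.42, 0.05 and 0.24 in SUS mice, and −0.08, −0.17 and −0.24 in SUS_LE mice. It was above 0 in each SUS library and below 0 in each library of the other groups. Across tested genes the log2 fold change had a Spearman correlation with GC content of 0.35 in SUS against SED, −0.38 in SUS_LE against SUS and −0.04 in SUS_LE against SED. Median GC content was 46.0% for beta, 47.3% for alpha and 53.0% for gamma transcripts. With the trends in GC content and length taken out of each library, an alternative chosen after seeing the data, the beta total ran from 124 to 148 CPM in SUS and from 120 to 144 CPM in SUS_LE. The beta log2 ratio then went from −0.03 to 0.03 in SUS against SED and from 0.06 to 0.01 in SUS_LE against SUS, and the alpha ratio in SUS against SED from −0.03 to 0.01. The gamma ratio went from 0.01 to −0.02 in SUS against SED and from 0.02 to 0.06 in SUS_LE against SUS.

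The 5 C-type genes carried 47023 of the 123911 member counts, but not evenly. Pcdhgc5, Pcdhgc3 and Pcdhac2, the 3 highest of all members, held 35.7% of member counts. By mean CPM Pcdhgc4 ranked 17 of 22 in gamma and Pcdhac1 11 of 14 in alpha. Pcdhgc5, whose protein binds the gamma2 subunit of the GABA-A receptor, had the highest level of all 58, with a mean of 157 CPM (33.2 CPM per kb) and 24.6% of gamma counts. Its levels were 157, 156 and 160 CPM in SED, 165, 158 and 157 CPM in SUS, and 161, 154 and 149 CPM in SUS_LE. Its coefficient of variation within groups, 2.87%, was the smallest of the family, and its log2 fold changes were 0.02 ± 0.05 (SE) in SUS against SED, −0.05 ± 0.05 in SUS_LE against SUS and −0.02 ± 0.05 in SUS_LE against SED. The groups overlapped.

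Pcdhgc3, which promotes dendrite branching in cortical neurons through Axin1, held 17.1% of gamma counts. Its level was 110, 120 and 116 CPM in SED, 110, 96.3 and 108 CPM in SUS, and 115, 108 and 101 CPM in SUS_LE. Every SUS mouse was below every SED mouse, although SUS mouse 1 and SED mouse 1 were level to within the printed digits. The log2 fold change in SUS against SED was −0.14 ± 0.06 (SE), which did not pass the test (edgeR quasi-likelihood, Benjamini-Hochberg adjusted p = 0.345). Pcdhgc4, needed for postnatal survival of mice and of many interneurons, had 12.4, 15.6 and 14.5 CPM in SED, 15.9, 16.4 and 17.1 CPM in SUS, and 16.4, 14.4 and 17.0 CPM in SUS_LE. Its SUS mice were all above its SED mice, with a log2 fold change of 0.22 ± 0.11 (edgeR adjusted p = 0.410).

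Pcdhac2, through which serotonergic axons tile their targets in the mouse, made up 41.8% of alpha counts. Its level was 68.8, 70.0 and 68.9 CPM in SED, 71.0, 68.2 and 61.1 CPM in SUS, and 68.5, 80.4 and 70.0 CPM in SUS_LE. SUS_LE mouse 2 was the highest and SUS mouse 3 the lowest, and the groups overlapped. The log2 fold change in SUS_LE against SUS was 0.13 ± 0.07 (SE), with an edgeR adjusted p of 0.431. Pcdhac1, the other alpha C-type gene, was lower than most alternate alpha genes, at 3.8 to 5.9 CPM in SED, 3.8 to 6.9 CPM in SUS and 4.4 to 7.7 CPM in SUS_LE.

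C-type genes held 44.7, 45.8 and 45.2% of gamma counts in the 3 SED mice, 44.0, 43.0 and 44.8% in SUS, and 43.7, 42.3 and 42.9% in SUS_LE. In this share each SUS_LE mouse was below each SED mouse, and SUS mice overlapped both groups. The summed level of the gamma C-type genes itself was 280, 291 and 291 CPM in SED, 291, 271 and 282 CPM in SUS, and 293, 276 and 267 CPM in SUS_LE, and the groups overlapped. The share also falls where alternate gamma genes rise, so it is not separate from their sums below. The summed level of the 12 gamma A genes, the larger subfamily of alternate gamma exons, was 244, 240 and 250 CPM in SED, 275, 258 and 240 CPM in SUS, and 266, 278 and 256 CPM in SUS_LE. Every SUS_LE mouse was above every SED mouse, with a log2 ratio of means of 0.12. The 7 gamma B genes summed to 103 ± 0.58 CPM in SED, 101 ± 5.9 in SUS and 103 ± 6.2 in SUS_LE (SD, n = 3). In alpha the C-type share was 42.1 to 50.8% over the 9 libraries, and the groups overlapped. These sums over chosen genes have no test.

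**Figure D2:**
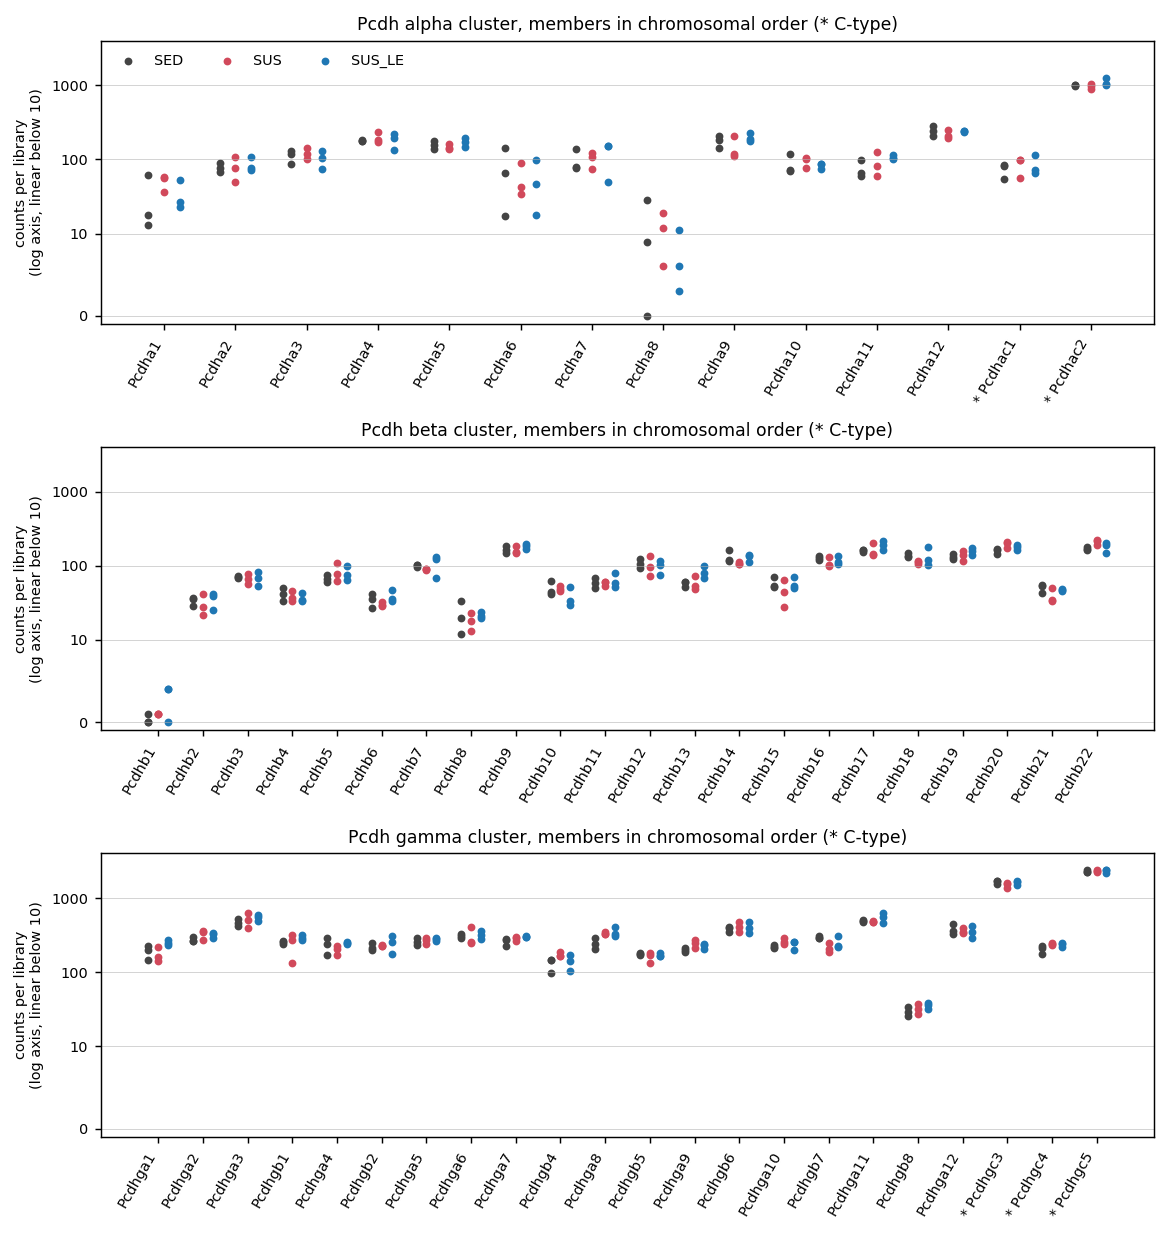
Counts per library of all 58 genes in chromosomal order within each cluster, coloured by group (log axis, linear below 10); asterisks mark C-type genes. Pcdhac2, Pcdhgc3 and Pcdhgc5 stand above their clusters, and dots of the same group lie far apart for Pcdha1, Pcdha6 and Pcdha8.

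Alternate genes differed widely in level inside a cluster. Alternate alpha genes ran from a mean of 0.72 CPM for Pcdha8 to 15.9 CPM for Pcdha12. Pcdha8 had 94 counts in all and none in SED mouse 1. After Pcdhac2 and Pcdha12 the highest alpha genes were Pcdha4 and Pcdha9, at 12.8 and 11.9 CPM. The 4 highest beta genes were Pcdhb22, Pcdhb20, Pcdhb17 and Pcdhb9, at 11.6 to 12.8 CPM. The lowest was Pcdhb1, whose promoter, unlike those of the other beta genes, lacks the shared CTCF site. It had 12 counts over all libraries, with 0, 0 and 1 in SED, 1, 1 and 1 in SUS, and 0, 4 and 4 in SUS_LE. It was the only one of the 58 that did not pass the edgeR filter on low counts, so 57 were tested. In gamma, Pcdhga3 and Pcdhga11 came next after Pcdhgc5 and Pcdhgc3, at 34.7 and 34.6 CPM. Pcdhgb8, annotated as a pseudogene in the mouse, was lowest at 2.2 CPM.

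Position in a cluster went only loosely with level. Across genes, the Spearman correlation of CPM per kb with order from the 5′ end was 0.34 over 13 alpha genes, 0.46 over 22 beta genes and 0.18 over 22 gamma genes. Without the C-type genes the gamma value was 0.02 over 19 genes. Genes in a cluster share libraries and sequence and are not independent, so these are descriptions. Transcript lengths came from another annotation than the one behind the counts.

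Differences between mice of the same group were much larger, relative to counting error, for alpha and gamma genes than for beta genes. The measure is the chi-square of a gene's counts within groups per degree of freedom, which is about 1 when counting alone sets the spread. Its median was 6.23 over the 14 alpha genes, 4.85 over the 22 gamma genes and 1.81 over the 21 tested beta genes. Among the 14429 tested genes between the lowest and highest tested member in level, the median was 1.93. In the band of 5 to 20 CPM the medians were 5.76 for 10 alpha genes, 3.19 for 12 gamma genes and 1.88 for 11 beta genes. All 4376 tested genes in the band had 1.73. The band's beta genes were at 5.2 to 12.8 CPM and its gamma genes at 10.1 to 19.2 CPM. Gamma and beta were therefore not matched in level. Over all tested genes of 20 to 200 CPM the median was 2.53. A value over 5 was reached by 71.4% of alpha, 50.0% of gamma and 4.76% of tested beta genes, and by 12.5% of the genes in the members' range.

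The widest spread was that of Pcdha6, with a chi-square of 33.1 per degree of freedom. It had 17, 65 and 143 counts in SED, 34, 90 and 42 in SUS, and 46, 18 and 97 in SUS_LE, so that mice of each group differed more than groups did. Pcdha7 followed at 17.1, with 77, 138 and 80 counts in SED, 75, 121 and 108 in SUS, and 150, 49 and 153 in SUS_LE. In gamma the widest were Pcdhgb1 at 14.3 and Pcdhga3 at 12.3. Pcdhgb1 stood at 9.0 CPM in SUS mouse 1 against 16.1 to 21.7 CPM in the other 8 libraries. Pcdha6, Pcdha7, Pcdhgb1 and these values were chosen after their spread was seen.

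Part of the family's sequence is shared, and the deposited counts depend on how reads from it were assigned. Transcripts of the reference were compared by words of 31 bases. Own words were those found in no other member nor in Gm37013, Gm38666 or Gm38667, which are described below. They made up 29.8 to 51.6% of an alpha transcript, 42.1 to 58.3% of a gamma transcript and at least 77.5% of a beta transcript. Over 57 members the Spearman correlation of this share with the spread within groups was −0.63, and within a cluster it was −0.48 for alpha, −0.23 for gamma and −0.08 for beta. These are descriptions across genes that share libraries. Whether read assignment bears on the spread was not tested, and the labels do not say how shared reads were split.

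**Figure D3:**
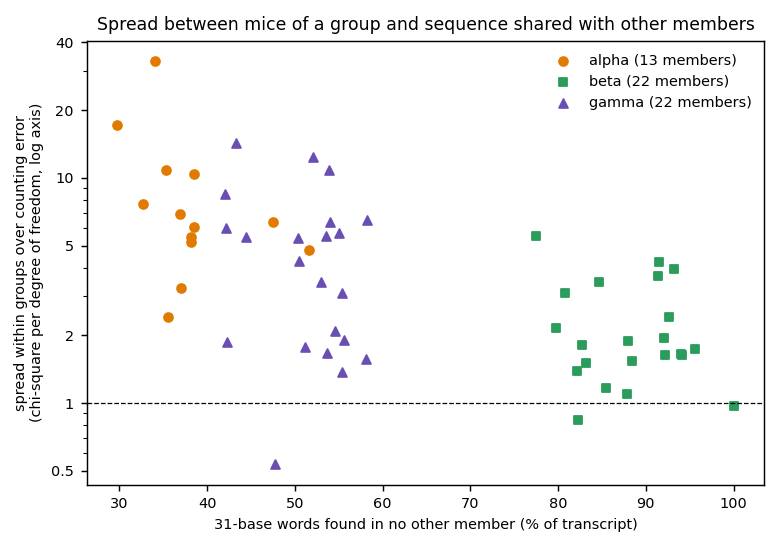
Spread between mice of a group (chi-square per degree of freedom, log axis, dashed line at 1 for counting error alone) against the share of own words, for 57 members with a reference transcript. Own words are 31-base words found in no other member nor in Gm37013, Gm38666 or Gm38667. Beta genes lie at 77.5% or more own words with values up to 5.53, and alpha genes lie at 51.6% or less with values up to 33.1.

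Genes annotated as joining an alpha variable exon to the gamma constant exons were counted separately from the alpha genes. Gm38666, whose synonym names Pcdha6, had 36, 0 and 0 counts in SED, 38, 0 and 0 in SUS, and 45, 64 and 0 in SUS_LE. It had counts in the 4 libraries where Pcdha6 was at 17, 34, 46 and 18, and none in the 5 where Pcdha6 was at 42 to 143. The sum of both was 53, 65 and 143 in SED, 72, 90 and 42 in SUS, and 91, 82 and 97 in SUS_LE, and its chi-square per degree of freedom was 11.7 in place of 33.1. For Pcdha4 with Gm37013 the value went from 6.08 to 6.36, and for Pcdha7 with Gm38667 from 17.1 to 16.4. Counts of Pcdha6 are reported as uncertain for this reason, and those of other alpha and gamma genes share the limit on reads from shared exons.

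In SUS against SED, the comparison of restrained susceptible mice with untreated ones, 0 of the 57 tested genes passed an adjusted p of 0.05 by edgeR, and neither did any of 16106 genes in the whole table (0.0%). DESeq2 and limma voom also called 0 of the 57, although DESeq2 gave an adjusted p to only 3 of them, and DESeq2 called 1.1% of all genes. At an unadjusted edgeR p under 0.05 there were 8 members, 0 alpha, 2 beta and 6 gamma, or 14.0% against 13.1% of all tested genes. The groups did not overlap in 12 members, 5 beta and 7 gamma, or 21.1% against 18.3% of all genes. Median log2 fold changes were 0.01 for alpha, −0.09 for beta and 0.04 for gamma, beside 0.00 for all genes. Of the beta genes 15 of 21 were below 0, where 50.1% of all genes were. Leaving out single mice gave medians of −0.08 to 0.06 for alpha and −0.19 to −0.05 for beta. Of 57 members, 42 had a log2 fold change within 0.25 of 0, and 1 was beyond 0.5.

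Pcdhgb7, a gamma B gene, had the smallest p of this comparison. Its level was 20.2, 21.6 and 19.3 CPM in SED, 17.2, 14.4 and 13.0 CPM in SUS, and 15.2, 20.3 and 15.2 CPM in SUS_LE. All SUS mice were below all SED mice, and SUS_LE mouse 2 was back among the SED values. The log2 fold change in SUS against SED was −0.45 ± 0.12 (SE), with an edgeR adjusted p of 0.163. Without the 3 libraries lowest in Ttr it was −0.57, in a fit that leaves 1 SUS_LE mouse and from which only the effect size is given. With no filter on low counts it was −0.45 with an edgeR adjusted p of 0.0092, which passed. That setting called 297 of 26992 genes in this comparison.

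Pcdhga8, a gamma A gene, went the other way. It had 16.9, 20.5 and 14.0 CPM in SED, 24.1, 22.6 and 22.3 CPM in SUS, and 22.5, 26.8 and 20.6 CPM in SUS_LE. Both restrained groups lay above all SED mice. Its log2 fold change was 0.43 ± 0.13 (SE) in SUS against SED and 0.45 in SUS_LE against SED, with edgeR adjusted p-values of 0.184 and 0.456. With no filter on low counts the edgeR adjusted p-values were 0.00769 and 0.00275, in a setting that called 297 and 218 of 26992 genes. Pcdhga8 and Pcdhgb7 are both alternate gamma genes a few positions apart, and Pcdhgb4, just 5′ of Pcdhga8, had a log2 fold change of 0.40 ± 0.19 in SUS against SED (edgeR adjusted p = 0.374).

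Among beta genes, Pcdhb22 and Pcdhb20, at the 3′ end of their cluster, had the smallest p-values. Pcdhb22 had 11.4, 11.8 and 12.0 CPM in SED and 15.1, 15.3 and 13.2 CPM in SUS, with 10.2, 12.2 and 14.0 CPM in SUS_LE. Its SUS mice were above its SED mice, by a log2 fold change of 0.31 (edgeR adjusted p = 0.284). Pcdhb20 had 10.3, 11.8 and 10.9 CPM in SED, 11.8, 14.2 and 14.3 CPM in SUS, and 12.4, 10.6 and 12.8 CPM in SUS_LE, with a log2 fold change of 0.29 in SUS against SED (edgeR adjusted p = 0.307). In alpha the smallest p-values belonged to Pcdha12, with a log2 fold change of −0.17, and Pcdha1, with 0.69 ± 0.57 (SE), and both overlapped between the groups. Leaving out single mice gave −0.27 to −0.04 for Pcdha12 and 0.33 to 1.68 for Pcdha1.

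**Figure D4:**
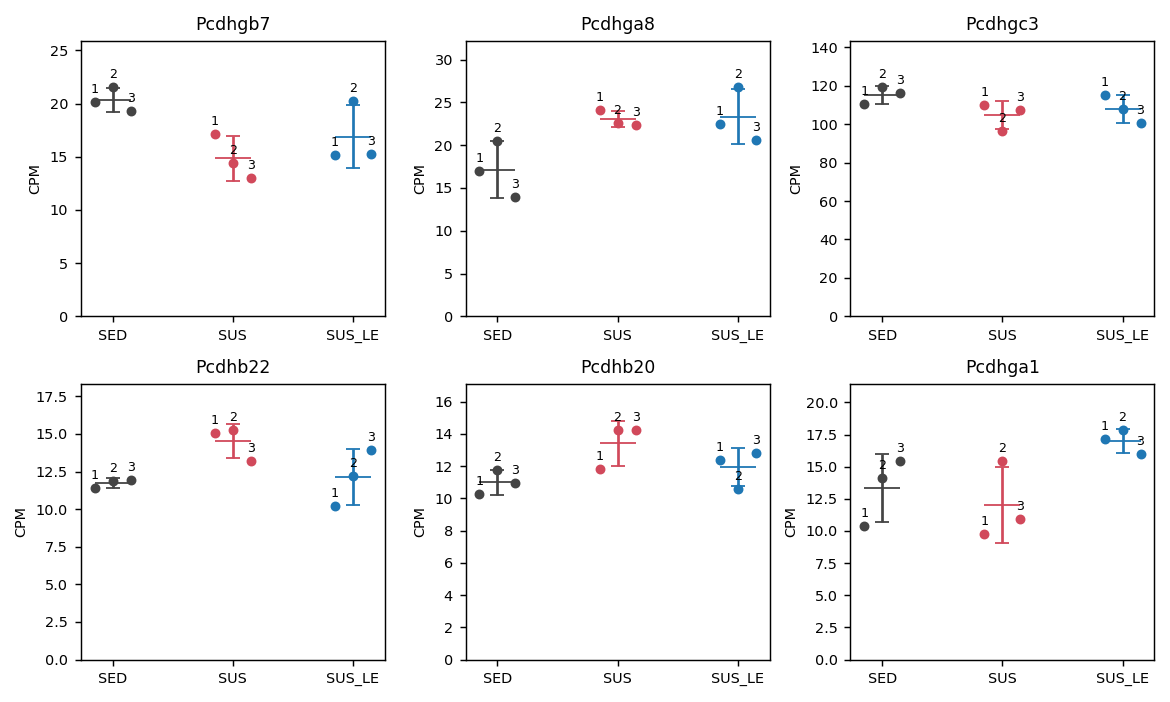
Levels (CPM, axes from 0) of 6 genes in each mouse, numbered by replicate, with group means and 1 SD (n = 3). Pcdhgb7 is lower in every SUS mouse than in every SED mouse, Pcdhga8 and Pcdhb22 are higher, and Pcdhga1 is higher in every SUS_LE mouse than in every SUS mouse; none passed the edgeR test.

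In SUS_LE against SUS, which asks what running after restraint left different, edgeR again called 0 of 57 members and 0.0% of all genes, and DESeq2 and voom 0 of 57, where DESeq2 gave an adjusted p to 3 of the 57 and called 1.15% of all genes. At an unadjusted p under 0.05 there were 3 members, 5.26% against 13.7% of all genes. Groups failed to overlap in 3 members, 5.26% against 17.0%. Median log2 fold changes were 0.03 for alpha, 0.15 for beta and 0.04 for gamma, beside 0.00 for all genes, and 14 of 21 beta genes were above 0, where 50.3% of all genes were. Leaving out single mice gave medians of −0.16 to 0.12 for alpha, 0.05 to 0.21 for beta and −0.02 to 0.06 for gamma. This comparison shares the SUS mice with the previous one, so a SUS mouse that is high or low moves both in opposite directions.

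Pcdhga1, the first gamma gene, had the smallest p. Its level was 10.4, 14.2 and 15.5 CPM in SED, 9.8, 15.4 and 10.9 CPM in SUS, and 17.2, 17.9 and 16.0 CPM in SUS_LE. The SUS_LE mice were above all mice of both other groups. The log2 fold change in SUS_LE against SUS was 0.50 ± 0.17 (SE), with an edgeR adjusted p of 0.214. With no filter on low counts the edgeR adjusted p was 0.00676, in a setting that called 430 of 26992 genes. Without SUS mouse 2, the highest of its group, Pcdhga1 had 0.72 (edgeR adjusted p = 0.0355) and Pcdha9 had 0.75 (edgeR adjusted p = 0.0494), and both passed. In that fit 184 of 16366 genes passed. With all libraries Pcdha9 stood at 14.5, 12.9 and 9.6 CPM in SED, 8.0, 14.2 and 7.7 CPM in SUS, and 13.1, 11.4 and 15.4 CPM in SUS_LE, a log2 fold change of 0.41 ± 0.25 (edgeR adjusted p = 0.516).

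Pcdhb13 had 4.3, 3.6 and 4.1 CPM in SED, 3.7, 5.0 and 3.3 CPM in SUS, and 5.4, 4.4 and 6.8 CPM in SUS_LE. Its log2 fold change was 0.47 both in SUS_LE against SUS (edgeR adjusted p = 0.315) and in SUS_LE against SED (edgeR adjusted p = 0.702). Pcdhb22 had −0.26 in SUS_LE against SUS, and its groups overlapped. Pcdhga4 had 11.8, 14.1 and 15.5 CPM in SUS against 17.4, 16.2 and 16.2 CPM in SUS_LE, with no overlap and a log2 fold change of 0.27 (edgeR adjusted p = 0.442).

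In SUS_LE against SED, restrained and exercised mice against untreated ones, edgeR called 0 of 57 members and 0.0% of all genes, DESeq2 0 of 57 and 0.0993% of all genes, and voom 0 of 57. At an unadjusted p under 0.05 there were 3 members, 5.26% against 6.64%, and groups failed to overlap in 4, 7.02% against 16.2%. Median log2 fold changes were 0.07 for alpha, 0.01 for beta and 0.09 for gamma, beside 0.01 for all genes. Of the gamma genes 17 of 22 were above 0, where 52.9% of all genes were. Pan-neuronal markers had a median of 0.09 in this comparison, with 12 of 15 above 0. Pcdhb10, at 3.1, 2.9 and 4.3 CPM in SED and 2.1, 3.4 and 2.3 CPM in SUS_LE, had a log2 fold change of −0.41 ± 0.23 (edgeR adjusted p = 0.790). Pcdha11, at 4.2, 6.9 and 4.4 CPM in SED and 6.8, 6.8 and 7.9 CPM in SUS_LE, had 0.47 ± 0.26 (edgeR adjusted p = 0.791). This comparison shares the SED mice with SUS against SED. Tested for any difference among the 3 groups at once, 0 of 57 members and 0.0% of all genes passed by edgeR, 5 members, 8.77% against 13.5% of all genes, had an unadjusted p under 0.05, and DESeq2, with an adjusted p for 3 of the 57, called 0 members and 1.22% of all genes. With no filter on low counts Pcdhgb7, Pcdhga1 and Pcdhga8 passed this edgeR test, with adjusted p-values of 0.0112, 0.00837 and 0.00115. That setting called 695 of 26992 genes.

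**Figure D5:**
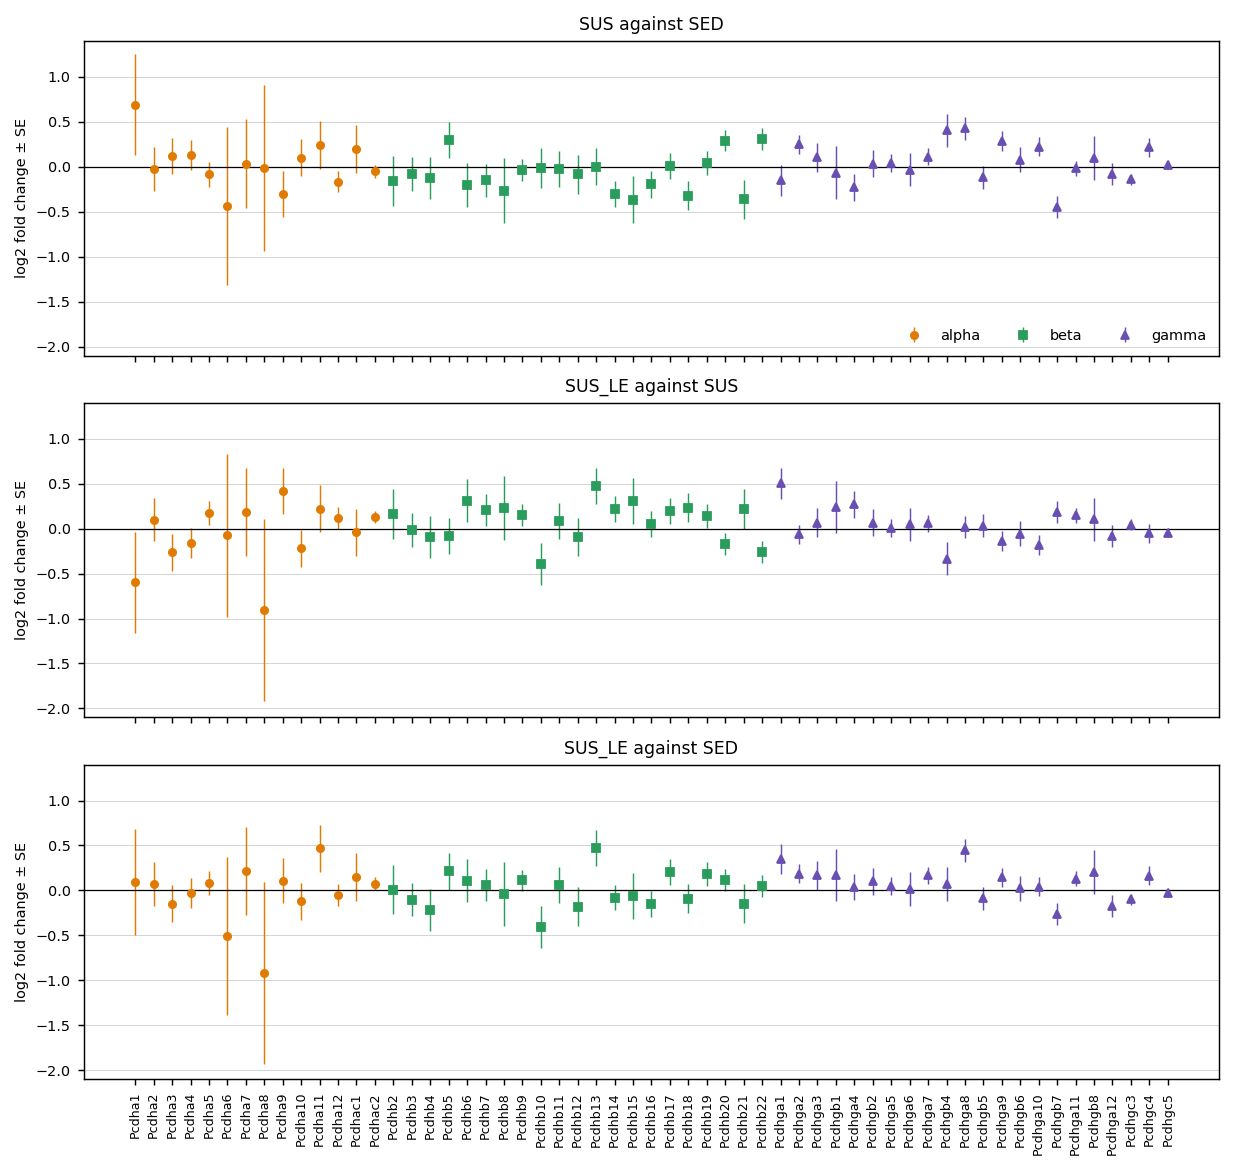
Log2 fold change ± SE of the 57 tested genes in the 3 comparisons, in chromosomal order from Pcdha1 to Pcdhgc5. Error bars are widest for Pcdha1, Pcdha6, Pcdha7 and Pcdha8, most points lie within 0.25 of 0, and no gene passed the edgeR test.

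Factors that act on or with the family were read from the same fit, and edgeR called 0 genes in each of 5 such lists in every comparison. Of 26 chromatin and insulator factors, 19 were lower in SUS than in SED, where 50.1% of all genes were, with a median log2 fold change of −0.09. Of the 26, 6 had an unadjusted edgeR p under 0.05, a larger share than the 13.1% among all genes. Whether the GC trend of this comparison has a part in this list was not tested. Nipbl, which loads cohesin, had 89.1 ± 4.9 CPM in SED and 75.1 ± 2.7 CPM in SUS (SD, n = 3), a log2 fold change of −0.25 (edgeR adjusted p = 0.134). Pds5a, a cohesin regulator, had −0.21 with the same adjusted p. In SUS_LE against SUS 13 of the list were higher and 13 lower, with a median of 0.02. In SUS_LE against SED 9 were higher, where 52.9% of all genes were, and 17 lower, with a median of −0.05. Lrif1, a partner of the silencer Smchd1, had 17.6 ± 1.6 CPM in SUS and 22.4 ± 0.22 CPM in SUS_LE. Its log2 fold change was 0.35 (edgeR adjusted p = 0.116).

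Of 27 signalling and processing partners, 10 were higher and 17 lower in SUS than in SED, and 20 were higher in SUS_LE than in SUS, with median log2 fold changes of −0.02 and 0.06. Abi1, a subunit of the WAVE complex that alpha protocadherins recruit, had 144 ± 3.5 CPM in SUS and 167 ± 8.8 CPM in SUS_LE (SD, n = 3), a log2 fold change of 0.22 (edgeR adjusted p = 0.116). Cyfip2, of the same complex, had 0.17 (edgeR adjusted p = 0.245).

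Of 16 tested non-clustered protocadherins and related cadherins, 11 were lower in SUS than in SED and 9 were higher in SUS_LE than in SUS. Pcdh20 had 107 ± 12.5 CPM in SED, 88.9 ± 1.9 in SUS and 114 CPM in SUS_LE, with log2 fold changes of −0.27 in SUS against SED (edgeR adjusted p = 0.242) and 0.35 in SUS_LE against SUS (edgeR adjusted p = 0.146). Celsr3, of the same list, went the other way, with 0.16 in SUS against SED (edgeR adjusted p = 0.273) and −0.15 in SUS_LE against SUS (edgeR adjusted p = 0.272). Of 24 classical and type II cadherins and catenins, 12 were higher and 12 lower in SUS than in SED. In SUS_LE against SED 15 were higher and 9 lower, with a median log2 fold change of 0.03. Ctnna1, alpha-E-catenin, was among the lower ones, with a log2 fold change of −0.29 in SUS_LE against SED (edgeR adjusted p = 0.456).

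Genes on either side of the clusters had a higher median log2 fold change than the clusters in SUS against SED. Of 17 tested flanking genes 16 were higher in SUS, with a median log2 fold change of 0.16, where 49.9% of all genes were higher. In SUS_LE against SUS 12 of the 17 were lower, with a median of −0.08. In SUS_LE against SED 13 were higher and 4 lower, with a median of 0.10, where 52.9% of all genes were higher. The correlation of all genes' fold changes with GC content was 0.35, −0.38 and −0.04 in these comparisons, in the same order. Its part in the flanking genes' values was not tested. Zmat2, next to the alpha cluster, had 135 ± 4.2 CPM in SED and 158 ± 14.8 CPM in SUS (SD, n = 3), a log2 fold change of 0.22 (edgeR adjusted p = 0.168). Taf7, a general transcription factor gene lying between the beta and gamma clusters, had 7.2, 10.0 and 8.7 CPM in SED, 7.4, 10.5 and 9.0 CPM in SUS, and 9.5, 8.3 and 11.5 CPM in SUS_LE, and overlapped between all groups. Its log2 fold changes were 0.06 in SUS against SED, 0.13 in SUS_LE against SUS and 0.19 in SUS_LE against SED.

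Marker lists of 11 cell types or systems were read beside the family, and edgeR called 0 of their genes in any comparison. In SUS against SED the median log2 fold change was 0.16 for pan-neuronal markers (13 of 15 higher), 0.10 for GABAergic interneurons (11 of 14 higher), −0.16 for dentate granule cells (0 of 10 higher), −0.03 for CA1 and CA3 pyramidal cells and 0.08 for astrocytes. It was −0.17 for oligodendrocytes and myelin, 0.06 for microglia, −0.09 for endothelial cells, −0.02 for the serotonin system, −0.19 for meningeal fibroblasts and −0.40 for choroid plexus epithelium. In SUS_LE against SUS the values were −0.08 for pan-neuronal markers, −0.07 for interneurons, 0.18 for dentate granule cells, 0.22 for endothelial cells, 0.23 for meningeal fibroblasts and −2.04 for choroid plexus, and those of the other 5 lists were 0.01 to 0.12. In SUS_LE against SED the medians were 0.09 for pan-neuronal markers (12 of 15 higher), 0.06 for interneurons (13 of 14 higher) and 0.11 for endothelial cells (14 of 15 higher). They were −2.51 for choroid plexus (all 20 lower) and −0.05 for oligodendrocytes and myelin, and 0.01 to 0.06 for the remaining lists. The summed pan-neuronal level was 9369 to 9510 CPM in SED, 9355 to 10216 CPM in SUS and 9794 to 10178 CPM in SUS_LE, and its part in the protocadherin values was not tested.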

How the data were processed

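The deposited files hold counts per gene, as whole numbers that were not normalized, in 1 file per mouse. Column headers number the SUS_LE mice 2 to 4 and the labels 1 to 3; mouse numbers here follow the labels. Per the submitters' processing notes, fastp, STAR and Salmon were used on GRCm39, with no versions or order. The library kit was CORALL RNA-seq V2 according to the labels. The annotation, the strand setting, any use of molecular identifiers and any rounding of Salmon estimates are not given in the sources used here. A gene at 0 in a library could have up to 3 counts (95% limit, counting error only). Same-group libraries differed beyond sampling noise (chi-square per degree of freedom 2.71 to 14.78), so none was counted as a duplicate.

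R 4.3.3 with edgeR 4.0.16 (filterByExpr, TMM scaling, robust quasi-likelihood F test on all 9 libraries) was used on 16106 genes holding 99.9% of counts, with Benjamini-Hochberg adjustment over all of them. The common biological coefficient of variation was 0.0845. DESeq2 1.42.0 and limma 3.58.1 (voom) were alternatives, as were other scalings, filters and subsets of libraries. DESeq2's independent filtering left 54, 54 and 0 members without an adjusted p in the 3 comparisons. The scripts were tested on simulated data. With 3 mice against 3, an exact permutation test of a single value cannot go below p = 0.1, so none was used.

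The members and the 16 gene lists were chosen with earlier results of these data known. Named members were the C-type genes, the 4 highest and the lowest of each cluster, and the 2 with the smallest p per cluster and comparison. Named genes of the lists came from the 2 smallest p-values per list and comparison, with Taf7 and Ttr. Transcript lengths, GC content, gene order and 31-base words came from GRCm38 annotations, another build than that of the files, so no coordinates are given.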

Additional observations from a re-analysis of the deposited data

How the results depend on the processing

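The number of members called stayed at 0 except as follows, leaving aside the fit without the 3 libraries lowest in Ttr. With no filter on low counts the number of members was 2 in SUS against SED, where 297 of 26992 genes were called. It was 1 in SUS_LE against SUS, of 430 genes called, and 1 in SUS_LE against SED, of 218. In the test among the 3 groups 3 members passed with no filter. The fit without the low-Ttr libraries leaves 1 SUS_LE mouse assumed to vary like the other groups, so its calls are not counted. In that fit Pcdhgb7 had a log2 fold change of −0.57 in SUS against SED, and in the main fit −0.45. Leaving out single mice gave 0 to 2 members called in SUS_LE against SUS, the 2 without SUS mouse 2, where 184 of 16366 genes were called.

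Over all genes the main count of 0 became 177, 185 and 16 with DESeq2 in the first (SUS against SED), the second (SUS_LE against SUS) and the last (SUS_LE against SED) comparison, and 197 among the 3 groups. With no filter on low counts it was 297, 430, 218 and 695, in that order, and without the 3 libraries lowest in Ttr 14, 20, 16 and 30. A choroid plexus score as covariate gave 427 in SUS_LE against SUS, 2 in SUS_LE against SED and 192 among the groups. Fitting only the 2 groups compared gave 1 in SUS_LE against SUS and 239 in SUS_LE against SED, and dropping the robust step gave 1 in each of these. Leaving out single mice gave 0 to 74, 0 to 184, 0 to 69 and 0 to 86, the highest without SUS mouse 3, SUS mouse 2, SUS mouse 1 and SUS mouse 3. Same-numbered mice of different groups did not deviate together (correlations −0.15 to 0.27 by the labels' numbers, and −0.17 to 0.25 between SUS_LE and the other groups by the numbers in the column headers), so replicate numbers were not taken as pairs; with a replicate block 1 gene was called in SUS against SED, 1 in SUS_LE against SUS, 0 in SUS_LE against SED and 1 among the groups, and 0 members in each comparison. The cause of these differences was not tested.

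Of 189 medians and 141 summed levels under alternatives, 183 and 140 moved by less than 1 SD. The alpha median in SUS_LE against SUS was −0.15 with voom and −0.16 to 0.12 without single mice. The gamma median in SUS_LE against SUS was −0.039 with the choroid covariate and −0.017 to 0.059 without single mice, and in SUS_LE against SED 0.068 to 0.13 without single mice. Without the C-type genes the gamma sum in SUS_LE against SED had a log2 ratio of 0.091. Among named members, small values changed sign. Pcdhac1 in SUS_LE against SUS was −0.33 to 0.10 without single mice and 0.13 with the choroid covariate. In SUS_LE against SED it was −0.14 to 0.30 without single mice and −0.091 without the 3 libraries lowest in Ttr. Pcdhac2 in SUS against SED was −0.10 to 0.0042 without single mice. In SUS_LE against SUS, Pcdhgc3 was −0.017 to 0.090 and Pcdhgc4 −0.10 to 0.017. Pcdhgc5 in SUS_LE against SED was −0.053 to 0.0030 without single mice. In SUS against SED Pcdhgc5 stood at −0.0026 in the fit that leaves out the low-Ttr mice. Removing trends in GC and length gave it −0.0011 there and 0.0011 in SUS_LE against SUS. Low counts limit Pcdhb1 and Pcdha8.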
